A study of Homo sapiens with 20 samples.

Results

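The 10 genes described here make and break down triglyceride, or coat the droplets that hold it: GPAT3, GPAT4, GPAM, DGAT1, DGAT2, PLIN2, PLIN3, PNPLA2, LIPE and MGLL. They were chosen by name from the 60271 genes of the count table, with their levels in all 5 groups of this series already known, so their levels and fold changes are given as a description and without p-values. All 10 were among the 16522 genes that passed the filter on low counts. RNA sequencing was done on MDA-MB-468, an epithelial cell line from a triple-negative breast cancer, grown in wells with serum withdrawn and then left untreated (control) or given 50 ng/mL epidermal growth factor (EGF) for 12, 24, 48 or 72 h. Per the treatment notes in the labels, the 5 groups shared 1 plating and 1 collection time, and EGF was added at staggered times before collection. Each group held 4 libraries, which the study describes as biological replicates of this 1 line. EGF was used here to induce an epithelial-mesenchymal transition (EMT), and the transcripts of lipid enzymes were followed along it.

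Triglyceride is built by adding fatty acids to a glycerol backbone. Glycerol-3-phosphate acyltransferases (GPATs) add the first chain, further acyltransferases and lipins carry the product through phosphatidic acid to diacylglycerol, and diacylglycerol acyltransferases (DGATs) add the last chain. The product is stored in lipid droplets coated by perilipins, and it is taken apart again by PNPLA2 (adipose triglyceride lipase), LIPE (hormone-sensitive lipase) and MGLL (monoglyceride lipase), acting on triglyceride, diacylglycerol and monoglyceride in turn. Phosphatidic acid and diacylglycerol are also the branch points from which membrane glycerophospholipids are made.

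Promoter sequence from RefSeq (GRCh38.p14) was matched for 6 of the 10 genes, over the 250 bases before the RefSeq start. Of these windows, 4 are shown here in whole or in part, 5′ to 3′ on the strand of the gene. They belong to GPAT3 and PLIN3, which had high transcript levels at 12 h of EGF, and to GPAM and PLIN2, which act at the same steps and had no higher level then. Each is the longest stretch of the window that holds no annotated exon, and capitals mark the GC box letters GGGCGG, the core of an SP1 site, on either strand. The GPAT3 stretch holds none, since the match of its window, from base 121 before the start, lies in an annotated exon.
GPAT3, chr4:83535857-83535913, plus strand: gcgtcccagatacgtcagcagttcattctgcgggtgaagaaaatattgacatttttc
PLIN3, chr19:4867769-4867917, minus strand: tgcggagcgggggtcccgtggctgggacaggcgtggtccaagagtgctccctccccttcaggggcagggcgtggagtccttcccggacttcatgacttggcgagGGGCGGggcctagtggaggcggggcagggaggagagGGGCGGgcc
GPAM, chr10:112183766-112184015, minus strand: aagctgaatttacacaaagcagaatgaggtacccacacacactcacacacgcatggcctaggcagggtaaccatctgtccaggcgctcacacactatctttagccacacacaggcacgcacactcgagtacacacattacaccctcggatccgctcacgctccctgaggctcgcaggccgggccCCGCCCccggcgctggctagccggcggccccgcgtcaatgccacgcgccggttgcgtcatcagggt
PLIN2, chr9:19127577-19127742, minus strand: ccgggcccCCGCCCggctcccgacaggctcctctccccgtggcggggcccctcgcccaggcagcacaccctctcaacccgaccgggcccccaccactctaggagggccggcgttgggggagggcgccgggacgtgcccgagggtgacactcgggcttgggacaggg

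Over the whole windows of 250 bases, on both strands, the GC box letters occurred 2 times for PLIN3 and for PLIN2 and 1 time for GPAT3, for GPAM and for PNPLA2, and 42.3% of the 27305 promoters in the RefSeq table hold them. PLIN2 also had the E-box letters CACGTG from base 69 before its start and TATAAA from base 29, which 6.49% and 11.1% of promoters hold. PLIN3 and LIPE had CCAAT, which 33% of promoters hold, and PNPLA2 had the sterol regulatory element letters TCACNCCAC, which 0.875% hold. None of these matches overlapped another. The AP-1 letters TGACTCA, the ETS letters CCGGAAG, the EGR1 letters GCGTGGGCG and the PPAR response element, a direct repeat of AGGTCA spaced by 1 base, were in none of the 6 windows, and 4.16%, 8.82%, 0.71% and 0.0183% of promoters hold them. These are matches of letters only. All 6 windows lie partly or wholly within the GENCODE 29 span of their own gene, so not all of their bases are upstream of it.

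The genes lie on several chromosomes. On GRCh38 with the GENCODE 29 annotation, GPAT3 (ENSG00000138678) spans chr4:83535914-83605875 on the plus strand and has 14 merged exons, none of which overlaps an exon of another gene. GPAM (ENSG00000119927, chr10:112149864-112215377, minus strand), PLIN2 (ENSG00000147872, chr9:19108375-19149290, minus strand) and MGLL (ENSG00000074416, chr3:127689062-128052190, minus strand) are likewise free of overlap. GPAT4 (ENSG00000158669, chr8:41577187-41625001, plus strand) shares 9.18% of its exon bases with a gene on the opposite strand, and DGAT1 (ENSG00000185000, chr8:144314584-144326910, minus strand) shares 3.36% with HSF1 on the opposite strand and 10.9% with 2 genes on its own strand. DGAT2 (ENSG00000062282, chr11:75759512-75801535, plus strand) shares 6.83% and PNPLA2 (ENSG00000177666, chr11:818902-825573, plus strand) shares 10.4% of exon bases with opposite-strand genes. For PLIN3 (ENSG00000105355, chr19:4838341-4867768, minus strand) the share is 17.8%, with AC027319.1, and for LIPE (ENSG00000079435, chr19:42401507-42427426, minus strand) it is 9.6%, with LIPE-AS1. Whether the counting used strand is not given in the sources used here, and reads from such shared bases cannot be assigned with certainty. Levels are given as CPM (counts scaled to a common library size) after TMM normalization, which scales libraries so that most genes show no difference. AC027319.1 was at 0.252 CPM or less in every library, LIPE-AS1 lay between 0.939 and 6.78 CPM, and HSF1 lay between 20.5 and 52.3 CPM.

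Libraries held 15611961 to 25856953 counts, and the share on mitochondrial genes ran from 7.694% to 16.85%, with 7.694% to 11.27% at 12 h and 12.26% to 16.42% at 72 h. Its part in the results was not tested. The epithelial markers EPCAM (138 to 225 CPM), KRT8, KRT18, CDH1 and EGFR were detected in every library. Their summed level was 4526 to 4850 CPM without EGF, 17663 to 18361 CPM at 12 h, 9791 to 12463 CPM at 24 h, 6490 to 7356 CPM at 48 h and 7465 to 8147 CPM at 72 h. The sum was carried by EGFR (3357 to 12124 CPM over all libraries) and KRT18 (684 to 5342 CPM), while CDH1 lay between 83 and 186 CPM, and its part in the results was not tested. Of the fat cell markers, LEP and LPL had no count in 19 of 20 libraries, ADIPOQ and CIDEC stayed below 0.5 CPM, and only PLIN1, at 0.599 to 2.99 CPM, had counts throughout. The summed level of the 5 fat cell markers was 2.26 to 2.99 CPM in the control, 0.654 to 1.46 at 12 h, 0.83 to 0.962 at 24 h, 2.58 to 3.55 by 48 h and 1.58 to 2.1 at 72 h. Marker sums of leukocytes, fibroblasts and endothelium were at most 6.94, 14.9 and 5.48 CPM, carried by CD14, COL1A1 and PECAM1, with CD3E, COL1A2 and CDH5 at 0 in 15, 17 and 13 of 20 libraries, and their part was not tested. In such bulk libraries, fewer cells that carry a transcript and less of it per cell cannot be told apart.

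GPAT3 stood apart from the other genes. It encodes a GPAT of the endoplasmic reticulum. GPAT3 was at 1.26, 1.39, 1.11 and 0.961 CPM in the control libraries, from 20 to 33 counts each. It was at 31, 32.7, 34.6 and 29.5 CPM at 12 h and at 20.9, 28.2, 32.2 and 34.8 CPM at 24 h. At 48 h it was at 4.82, 4.55, 7.07 and 6.3 CPM, and at 72 h at 21, 22.5, 18.5 and 16.9 CPM. Every EGF library was above every control library, and the 4 libraries at 48 h lay between the control and all other EGF libraries. The log2 fold changes against the control were 4.75 (SE 0.183) at 12 h, 4.61 (SE 0.183) at 24 h, 2.27 (SE 0.201) by 48 h and 4.06 (SE 0.185) at 72 h. From 24 h to 48 h the difference was -2.34 (SE 0.148), and from 48 h to 72 h it was 1.79 (SE 0.149). The ranges at 12 h and 24 h overlapped, as did those at 24 h and 72 h.

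GPAT4, the other GPAT of the endoplasmic reticulum, stood clear of the control at 12 h alone. Its control libraries were at 9.74, 11.1, 10.4 and 12.4 CPM, and those at 12 h were at 19.5, 18.7, 19.7 and 19.2 CPM, all above every library of the other groups. The log2 fold change at 12 h was 0.82 (SE 0.0924). At 24, 48 and 72 h the libraries lay between 10.2 and 13.5 CPM and overlapped the control, with log2 fold changes of 0.16, -0.01 and 0.17 (SE 0.0944 to 0.0946).

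GPAM, which encodes the GPAT of the mitochondrial outer membrane, was lower with EGF. It was at 5.48, 7.06, 7.13 and 5.91 CPM in the control and at 3.64, 4.47, 3.98 and 4.54 CPM at 12 h, without overlap. At 24 h it was lowest, at 3.86, 2.43, 2.82 and 3.95 CPM. The levels at 48 h (4.55 to 5.98 CPM) and 72 h (3.78 to 5.57 CPM) reached into the control range. Log2 fold changes were -0.62 (SE 0.154), -0.96 (SE 0.158), -0.31 (SE 0.15) and -0.46 (SE 0.153) in the order of time. With scale factors taken per gene from the deposited normalized values, the values were -0.51, -1.26, -0.81 and -0.87, and GPAM no longer passed the test at 12 h and 72 h (adjusted p under 0.05 in edgeR). It also did not pass at 72 h without EGF 72 h replicate 1 (-0.34).

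**Figure D1:**
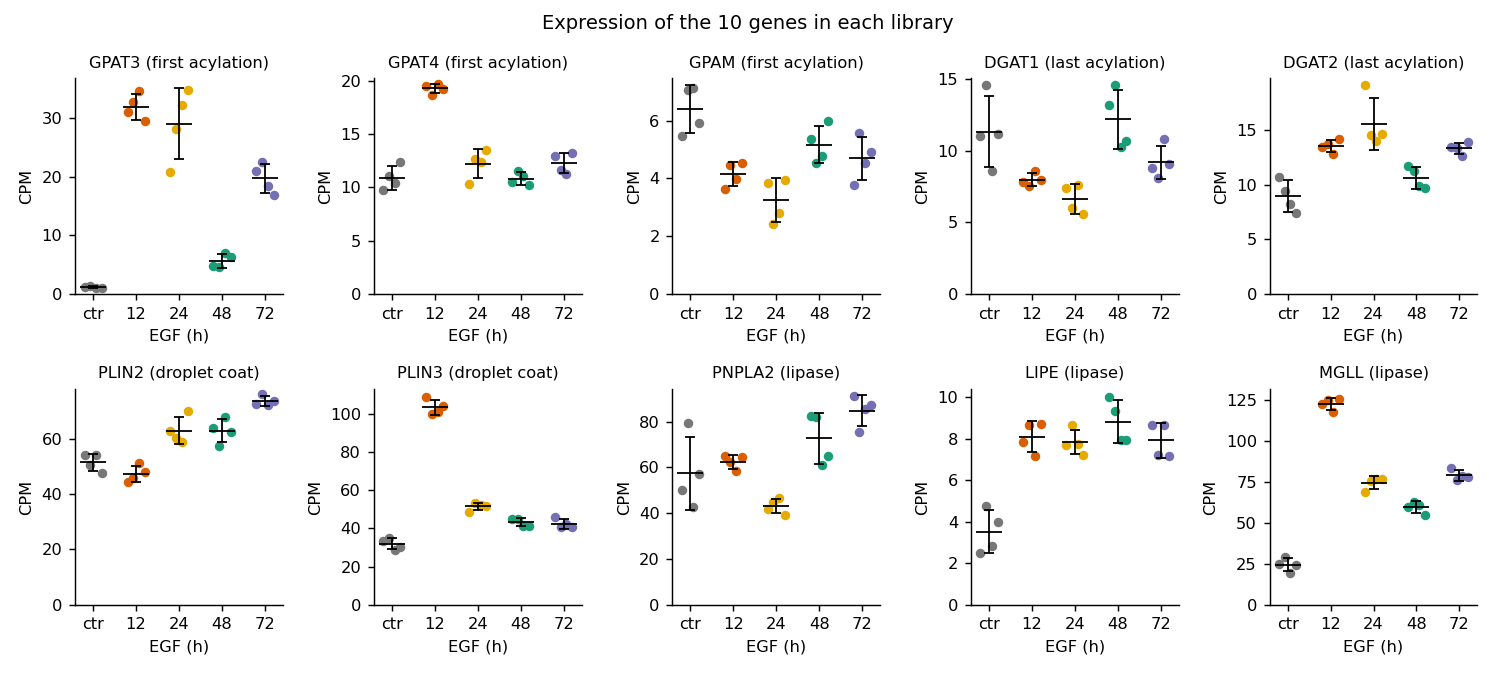
Expression of the 10 genes, 1 panel each, as CPM after TMM normalization (y axis, from 0) in the control (ctr) and at the 4 EGF times of 12, 24, 48 and 72 h (x axis). Points are single libraries, the horizontal mark is the mean of 4 and the bars are the SD; GPAT3 ranges from 0.961 to 1.39 CPM in the control and from 4.55 to 34.8 CPM with EGF.

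The 3 GPAT genes can be set against each other roughly as CPM per kb of merged exons. Merged exons cover every annotated transcript of a gene, whether or not it was expressed here, so shares between genes depend on the annotation. On that scale GPAT3 made up 14.4% ± 2.48 (SD, n = 4) of the summed GPAT level in the control, behind GPAT4 at 58% ± 4.09 and GPAM at 27.5% ± 2.79. At 12 h GPAT3 made up 76.3% ± 1.29, GPAT4 20.1% ± 1.07 and GPAM 3.52% ± 0.451. The share of GPAT3 was 81.4% ± 2.36 at 24 h, 46% ± 5.24 by 48 h and 73.6% ± 3.01 at 72 h, above its control range of 11.3% to 16.9% in every EGF library. The summed level of the 3 genes was 2.37 ± 0.159 CPM per kb in the control, 12.1 ± 0.637 at 12 h, 10.2 ± 1.9 at 24 h, 3.53 ± 0.346 by 48 h and 7.72 ± 0.708 at 72 h. Per kb, GPAT3 thus went from the lowest to the highest of the 3 genes at each EGF time point by group mean. At 48 h its share of 40.7% to 51.9% overlapped that of GPAT4, 34.6% to 44.9%. Without division by length, the mean of GPAT3 at 48 h (5.68 CPM) was below that of GPAT4 (10.8 CPM).

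DGAT1 and DGAT2 encode 2 unrelated enzymes for the last acylation, and they went in opposite directions at 12 h and 24 h. DGAT1 was at 11, 14.6, 8.58 and 11.2 CPM in the control, at 7.83, 7.52, 8.62 and 7.94 CPM at 12 h and at 7.37, 5.99, 7.63 and 5.56 CPM at 24 h. The lowest control library touched the range at 12 h but not that at 24 h. The log2 fold changes of DGAT1 were -0.51 (SE 0.146), -0.78 (SE 0.149), 0.10 (SE 0.141) and -0.30 (SE 0.145) at 12, 24, 48 and 72 h. At 48 h its level was 10.3 to 14.6 CPM, within the spread of the control libraries. With scale factors per gene the call at 24 h was lost (-0.59).

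DGAT2 was at 10.7, 9.42, 8.24 and 7.4 CPM in the control and at 13.4, 13.7, 12.8 and 14.2 CPM at 12 h. At 24 h it was at 19.1, 14.5, 14 and 14.6 CPM, with replicate 1 well above the other 3 libraries. At 48 h it was at 11.7, 11.2, 9.88 and 9.65 CPM, and at 72 h at 13.4, 13.3, 12.6 and 13.9 CPM. Only the libraries at 48 h overlapped the control. The log2 fold changes were 0.60 (SE 0.113), 0.80 (SE 0.113), 0.24 (SE 0.114) and 0.57 (SE 0.113), and at 12 h the value was 0.31 when libraries were scaled by their totals alone.

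On the scale of CPM per kb, DGAT2 made up 29.5% ± 4.72 (SD, n = 4) of the summed DGAT level in the control, 47% ± 2.3 at 12 h, 55% ± 4.18 at 24 h, 31.4% ± 1.98 by 48 h and 43.1% ± 3.67 at 72 h. The sum itself lay between 3.57 ± 0.458 CPM per kb (24 h) and 4.3 ± 0.612 CPM per kb (48 h), with 3.88 ± 0.674 in the control. The ranges of the DGAT2 share at 12 h (43.7% to 48.8%) and at 24 h (48.9% to 57.8%) lay above those of the control (25.2% to 33.8%) and of 48 h (28.7% to 33.5%).

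PLIN2 and PLIN3 are perilipins made in most cell types. PLIN3 was at 33.4, 35.2, 28.9 and 30.3 CPM in the control and at 109, 100, 101 and 104 CPM at 12 h. By 24 h it was at 48.7, 53.4, 52.1 and 51.9 CPM, and at 48 h and 72 h it was between 40.6 and 46 CPM. Every EGF library was above every control library, and the 12 h libraries were far above all others. The log2 fold changes were 1.70 (SE 0.0695), 0.69 (SE 0.0694), 0.44 (SE 0.0693) and 0.41 (SE 0.0696), and the step from 12 h to 24 h was -1.01 (SE 0.068).

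PLIN2, which is bound to droplets wherever it is stable, had another time course. It was at 54.1, 50.7, 54 and 47.5 CPM in the control and at 44.5, 45.7, 51.3 and 47.9 CPM at 12 h, with overlapping ranges. At 24 h it was at 62.8, 60.4, 58.9 and 70 CPM, at 48 h at 64.1, 57.5, 67.8 and 62.5 CPM, and at 72 h at 72.5, 76.4, 72.4 and 73.7 CPM. All 12 libraries from 24 h on were above the control, and those at 72 h were above all others. Log2 fold changes were -0.12 (SE 0.0706), 0.29 (SE 0.0702), 0.29 (SE 0.0699) and 0.52 (SE 0.07), and with libraries scaled by their totals alone the first was -0.41. Per kb, PLIN2 made up 47.2% ± 2.72 (SD, n = 4) of the summed level of both perilipins in the control, 20.2% ± 1.42 at 12 h, 40.3% ± 2.19 at 24 h, 44.6% ± 2.64 by 48 h and 49.1% ± 1.91 at 72 h. Their sum was 21.5 ± 1.19 CPM per kb in the control, 46.2 ± 1.19 at 12 h and 29.5 ± 0.747 at 72 h.

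**Figure D2:**
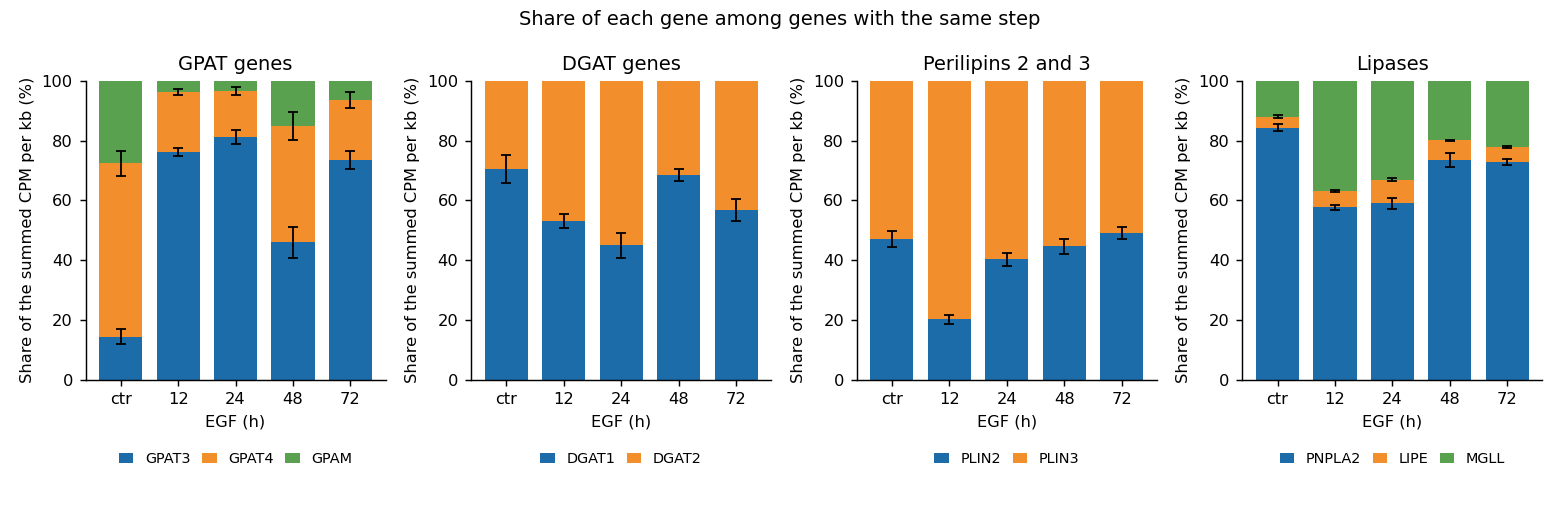
Share of each gene (y axis, percent of the summed CPM per kb) among the GPAT genes, the DGAT genes, perilipins 2 and 3 and the lipases, in the control (ctr) and at the 4 EGF times of 12, 24, 48 and 72 h (x axis). Segments are means of 4 libraries and bars are the SD of the share of the segment below the mark; the GPAT3 segment is 14.4% in the control and 76.3% at 12 h.

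Among the lipases, MGLL was higher at every time point. It was at 25.1, 29, 19.3 and 24.5 CPM in the control, at 123, 125, 118 and 126 CPM at 12 h, at 68.7, 75.5, 76.9 and 77.1 CPM at 24 h, at 60.1, 63, 61.2 and 55 CPM at 48 h and at 83.8, 76.3, 78.5 and 78 CPM at 72 h. All 16 EGF libraries were above the control, the 12 h libraries were highest and those at 48 h were the lowest of the EGF libraries. Log2 fold changes were 2.33 (SE 0.0872), 1.61 (SE 0.0864), 1.29 (SE 0.086) and 1.70 (SE 0.0864).

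LIPE was at 2.51, 4.75, 2.82 and 3.99 CPM in the control, from 50 counts in the lowest library. It was at 7.83, 8.66, 7.18 and 8.7 CPM at 12 h, and over all 16 EGF libraries it ran from 7.15 to 10 CPM. No EGF library overlapped the control, while the 4 EGF groups overlapped each other. The log2 fold changes were 1.20, 1.15, 1.31 and 1.17 (SE 0.151 to 0.153), a level difference from 12 h on. LIPE-AS1, the gene on the opposite strand, had 2.07 to 2.73 CPM in control libraries, 0.939 to 1.16 CPM at 12 h, 1.15 to 2.42 CPM at 24 h, 4.03 to 4.77 CPM at 48 h and 5.24 to 6.78 CPM at 72 h. It was below the control at 12 h, overlapped it at 24 h and was above it at 48 h and 72 h, and its part in the LIPE values was not tested.

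PNPLA2, the enzyme that starts triglyceride breakdown, was spread widely among the control libraries, at 50.1, 79.6, 42.9 and 57 CPM. It was at 65, 62.3, 58.3 and 64.6 CPM at 12 h and at 42, 44.7, 46.6 and 39.4 CPM at 24 h. At 48 h it was at 82.6, 82.2, 61.2 and 64.8 CPM, and at 72 h at 91.2, 75.3, 85.7 and 87.2 CPM. The control range overlapped that of every EGF group, and the libraries at 24 h were below those of every other EGF group. Log2 fold changes against the control were 0.12 (SE 0.134), -0.41 (SE 0.136), 0.34 (SE 0.133) and 0.56 (SE 0.134). The first was -0.16 when libraries were scaled by their totals alone, so its sign depends on the scaling. Without control replicate 2, the highest of the control libraries, the values at 12, 24, 48 and 72 h were 0.33, -0.21, 0.54 and 0.76, by which PNPLA2 came to pass at 12 h and no longer passed at 24 h. Without control replicate 3, the lowest, the value at 48 h was 0.22 and did not pass. From 12 h to 24 h PNPLA2 differed by -0.54 (SE 0.136) and from 24 h to 48 h by 0.75 (SE 0.136).

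Per kb, PNPLA2 made up 84.3% ± 1.2 (SD, n = 4) of the summed level of the 3 lipases in the control, 57.7% ± 0.774 at 12 h and 72.9% ± 1.07 at 72 h. MGLL made up 11.9% ± 1.39 in the control, 36.8% ± 0.669 at 12 h, 33.1% ± 1.86 at 24 h, 19.9% ± 2.22 by 48 h and 22.1% ± 0.934 at 72 h. LIPE stayed the smallest of the 3 in each group, at 3.82% ± 0.537 in the control and at most 7.91% ± 0.464, at 24 h.

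**Figure D3:**
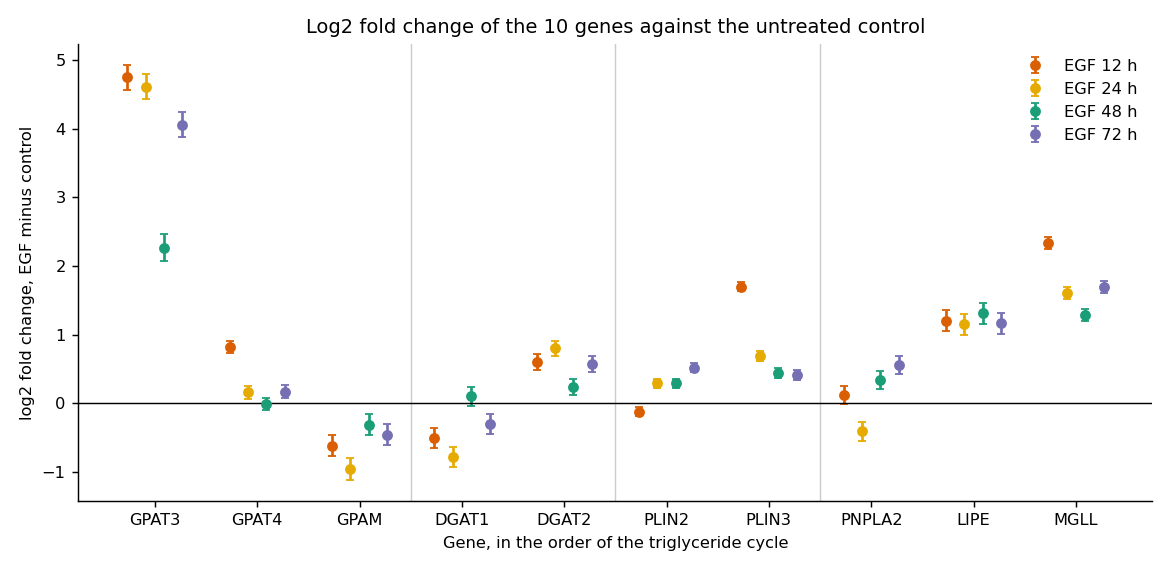
Log2 fold change against the control from the edgeR fit (y axis) of the 10 genes (x axis), with 1 point for each EGF time (12, 24, 48 and 72 h) and bars for the standard error. GPAT3 lies between 2.27 and 4.75 and MGLL between 1.29 and 2.33, while GPAM is below 0 at each time point.

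Read as a group, the median log2 fold change of the 10 genes was 0.71, 0.49, 0.31 and 0.54 at the 4 time points in order. The medians over all 16522 genes were -0.054, -0.0071, 0.0099 and -0.009. With an adjusted p under 0.05 in edgeR's quasi-likelihood test, 8 of the 10 genes passed at 12 h, with 6 higher and 2 lower, where 69.4% of all genes tested passed (32.9% higher, 36.5% lower). At 24 h 9 passed, with 6 higher and 3 lower, beside 58.8% of all genes (29.2% higher, 29.6% lower). At 48 h 6 passed, all higher, beside 45.8% (24.0% higher, 21.8% lower), and at 72 h 8 passed, with 7 higher and 1 lower, beside 61.6% (30.6% higher, 31.0% lower). These counts describe genes that were picked with these contrasts known, and nothing is read from them. Libraries of the control and EGF groups did not overlap for 7 genes at 12 h, 6 above and 1 below the control, where 60.8% of all genes did not overlap (29.4% above, 31.4% below). For 24 h it was 8 genes, 6 above and 2 below, beside 48.2% (24.2% above, 24.0% below). For 48 h it was 5 genes, all above, beside 34.9% (19.6% above, 15.3% below), and for 72 h 6 genes, all above, beside 52.0% (26.1% above, 25.9% below). PNPLA2 at 48 h was the least stable of these calls, and it was lost in 11 of the 29 alternative fits. Scaling by library totals alone moved the median log2 fold change of all genes to -0.34 at 12 h and -0.15 at 24 h, and upper-quartile scaling moved it to -0.22 at 12 h. Of all calls at 12 h, 47.4% were higher with TMM, 30.2% with totals and 37.2% with upper quartiles, and at 24 h 49.6% were higher with TMM and 36.3% with totals. Among the 10 genes, PLIN2 was added to the calls at 12 h as lower under both of these scalings and left those at 24 h under totals.

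Between successive time points, 5 of 10 genes passed from 12 h to 24 h, 1 higher and 4 lower, beside 53.7% of all genes (27.9% higher, 25.9% lower). From 24 h to 48 h 7 passed, 3 higher and 4 lower, beside 50.2% (25.9% higher, 24.3% lower), and from 48 h to 72 h 5 passed, 4 higher and 1 lower, beside 35.7% (17.9% in each direction). Scaling by library totals moved the shares of all genes to 37% higher and 16.9% lower from 12 h to 24 h, 36% and 14.1% from 24 h to 48 h, and 12.9% and 25.3% from 48 h to 72 h. Upper-quartile scaling gave 35.8% and 18.4%, 29.3% and 20.2%, and 15.8% and 21.3%. The 10 genes then gave 2 higher and 4 lower, 3 and 2, and 2 and 1 with totals, and 2 and 4, 3 and 4, and 3 and 1 with upper quartiles. GPAT3 was lower at 48 h than at 24 h by -2.34 on the log2 scale and higher again at 72 h by 1.79. No alternative lost either call. The 10 genes were picked with these levels known, so a call kept or lost here describes the fits and is no support. DGAT2 and MGLL had values of -0.56 and -0.32 and then of 0.32 and 0.40. For MGLL the first of these calls was lost with totals (-0.16) and with scale factors per gene (-0.24). For DGAT2 the second was lost in 7 of 29 alternative fits (0.24 to 0.33), which were totals, upper quartiles, factors per gene and the fits without EGF 48 h replicate 3 or 4 or EGF 72 h replicate 1 or 4. DGAT1, PNPLA2 and GPAM were higher at 48 h than at 24 h, by 0.88, 0.75 and 0.65. With factors per gene DGAT1 (0.64) and GPAM (0.45) did not pass. For PLIN3 the value was -0.25, a call lost with totals (-0.10). From 48 h to 72 h DGAT1 was the gene lower, by -0.40, and 7 of 29 alternative fits lost that call. PLIN2 was higher by 0.23 over the same step, a call lost with totals (0.14) and with factors per gene (0.20). PLIN2 was higher at 24 h than at 12 h by 0.41 (SE 0.0706), while GPAT4, PLIN3, PNPLA2 and MGLL were lower by -0.66, -1.01, -0.54 and -0.72.

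Across the 20 libraries, which share the 5 groups and their scaling, the log2 CPM of GPAT3 went closest with that of MGLL (Pearson r 0.94) and DGAT2 (0.85), and against that of GPAM (-0.75) and DGAT1 (-0.69). GPAT4 went closest with PLIN3 (0.91). DGAT1 and DGAT2 ran against each other (-0.61), and PLIN2 had coefficients from -0.51 (GPAT4) to 0.30 (LIPE) with the other 9 genes. Of the 16512 other genes tested, the one with the highest correlation was EMP1 for GPAT3 (0.996), CDH3 for PLIN3 (0.991), LINP1 for MGLL (0.989), SAMD4B for GPAT4 (0.973), HERC5 for PLIN2 (0.970) and SMAD3 for LIPE (0.966). For PNPLA2 it was ASCC2 (0.952), for DGAT1 PRKACA (0.947), for DGAT2 CALML5 (0.911) and for GPAM PLAAT2 (0.879). These coefficients describe likeness of pattern over 5 groups of 4 libraries and carry no p-value.

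Beyond the 10 genes, 6 lists of 69 other genes of neutral lipid metabolism were examined, of which 49 passed the filter. Of all 16522 genes, 32.9%, 29.2%, 24.0% and 30.6% passed as higher and 36.5%, 29.6%, 21.8% and 31.0% as lower at 12, 24, 48 and 72 h, which is the background for the counts of each list. With libraries scaled by totals, 21.7% of all genes were higher and 50.1% lower at 12 h, and 22.2% and 38.9% at 24 h. The counts of each list by direction were taken with TMM alone. Of the 49 genes, 40 passed the test against the control at 12 h with 17 higher and 23 lower, 37 at 24 h with 14 higher and 23 lower, 24 at 48 h with 14 higher and 10 lower, and 34 at 72 h with 17 of each. The shares were 81.6%, 75.5%, 49% and 69.4% of the genes tested, beside 69.4%, 58.8%, 45.8% and 61.6% of all genes, so that those at 48 h and 72 h lay near the share of all genes. The median log2 fold changes of the 49 genes were -0.21, -0.30, -0.019 and 0.039. All adjusted p-values that follow are from edgeR and were corrected over the full set of 16522 genes by the method of Benjamini and Hochberg. The lists were written with earlier results of these data known. The genes named are those with the largest changes among genes that passed, so their small p-values follow in part from that choice.

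The list of droplet coat and biogenesis genes had 12 of its 20 genes tested. Of these, 8 fell and 2 rose at 12 h, 8 fell and 1 rose at 24 h, 3 fell and 1 rose at 48 h, and 6 fell and 2 rose at 72 h, where 36.5%, 29.6%, 21.8% and 31.0% of all genes fell. The median log2 fold changes of the list were -0.65, -0.56, -0.19 and -0.44. METTL7A, a methyltransferase-like protein found on droplets, had a control level of 23.7 ± 3.59 CPM (SD, n = 4) and fell by 12 h to 1.31 ± 0.182 CPM (log2 fold change -4.17, SE 0.26, adjusted p = 3.68e-12). It was still lower at 48 h, by -0.92 (adjusted p = 7.32e-04), and at 72 h, by -2.85. BSCL2, which encodes seipin, a protein of the sites where droplets form, fell from 48.3 ± 3.78 to 8.04 ± 1.86 CPM at 12 h (log2 fold change -2.59, SE 0.144, adjusted p = 1.57e-13) and by -1.84 at 24 h and -0.45 at 72 h, and did not pass at 48 h (0.17, adjusted p = 0.281). BSCL2 shares 40.6% of its exon bases with the readthrough gene HNRNPUL2-BSCL2, which had 49.6 to 76.9 CPM in control libraries against 64 to 67.7 CPM at 12 h, and with scale factors per gene the BSCL2 calls at 12, 24 and 72 h were lost (-2.34, -2.51 and -1.02). PLIN1, the perilipin of fat cells, was low and fell from 2.18 ± 0.258 to 0.865 ± 0.346 CPM at 12 h (-1.32, SE 0.217, adjusted p = 8.62e-06), and HSD17B11, a droplet-bound dehydrogenase, fell from 1.72 ± 0.634 to 0.527 ± 0.15 CPM (-1.69, SE 0.296, adjusted p = 1.98e-05). PLIN1 did not pass at 48 h and 72 h (0.24 and -0.43). HSD17B11 did not pass at 24 h and 48 h (-0.61 and -0.56) and was lower at 72 h (-1.19). PLIN3 was higher at 12 h than in the control, and with TMM 8 of the 12 droplet genes of this list were lower, BSCL2 among them. The share of all genes lower at 12 h was 36.5% with TMM, 50.1% with totals and 44.2% with upper quartiles. PLIN3 and the list were chosen with earlier results known, so nothing is read from this contrast.

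Of the 9 genes tested in the list of triglyceride synthesis, 4 rose and 4 fell at 12 h, 3 rose and 3 fell at 24 h, 3 rose and 1 fell at 48 h, and 4 rose and 2 fell at 72 h, beside 69.4%, 58.8%, 45.8% and 61.6% of all genes that passed in either direction. MOGAT2, a monoacylglycerol acyltransferase, was lower at each time point, with a control level of 8.33 ± 0.837 CPM and 1.21 ± 0.138 CPM by 12 h (-2.77, SE 0.156, adjusted p = 1.66e-13), with -2.53, -1.63 and -2.76 at 24, 48 and 72 h. AGPAT5 and AGPAT2, which add the second chain, rose at 12 h by 1.06 and 0.81 (adjusted p = 1.45e-08 and 4.09e-07). AGPAT2 did not pass at 24, 48 and 72 h (-0.014, -0.027 and -0.24). AGPAT5 did not pass at 48 h (0.21) but was higher at 24 h and 72 h (0.66 and 1.01). LPIN3, a phosphatidate phosphatase, passed at 48 h and 72 h alone (0.83 and 0.88, adjusted p = 0.00409 and 0.00175), and with scale factors per gene the call at 48 h was lost (0.66).

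In the list of lipase regulators and other neutral lipases, with 9 genes tested, 1 rose and 3 fell at 12 h, 2 rose and 5 fell at 24 h, 2 rose and 3 fell at 48 h, and 2 rose and 5 fell at 72 h, where 36.5%, 29.6%, 21.8% and 31.0% of all genes fell. LIPG, the endothelial lipase, which acts mainly on phospholipids of lipoproteins, rose from 22.5 ± 2.94 to 69.3 ± 3.85 CPM at 12 h (1.62, SE 0.0799, adjusted p = 1.51e-14) and stayed higher by 1.48, 1.25 and 1.36. CES1, a carboxylesterase that cleaves triglyceride and cholesteryl ester, fell from 8.71 ± 1.02 CPM to a low of 1.72 ± 0.27 CPM at 48 h (-2.35, SE 0.139, adjusted p = 1.43e-12). PNPLA4, a small relative of PNPLA2, was lower at 12 h (-1.51, SE 0.137, adjusted p = 8.23e-10) and higher at 48 h (0.35, adjusted p = 0.0247), and the call at 48 h was lost without control replicate 3 (0.26) or EGF 48 h replicate 2 (0.32). ABHD6, a monoglyceride lipase like MGLL, went the other way from MGLL, with -0.92 at 24 h (SE 0.156, adjusted p = 2.26e-05) and -0.51 at 72 h.

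Of the genes of sterol ester storage, 3 were tested. SOAT1, which esterifies cholesterol for storage, rose from 89 ± 10.9 to 143 ± 3.77 CPM at 12 h (0.68, SE 0.0793, adjusted p = 5.71e-08). Its values at 24, 48 and 72 h were 0.43, -0.038 and 0.32, and that at 48 h did not pass. NCEH1, which cleaves cholesteryl esters, was higher by 0.59, 0.59, 0.59 and 0.67 in the order of time (adjusted p = 7.34e-07 at 12 h). LIPA, the acid lipase of lysosomes, fell from 171 ± 26.5 to 90.7 ± 3.93 CPM at 12 h (-0.91, SE 0.0888, adjusted p = 2.96e-09) and did not pass at 48 h and 72 h (-0.037 and 0.16).

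Among the lipid transcription regulators, 13 genes were tested, of which 7 rose and 5 fell at 12 h, 6 rose and 5 fell at 24 h, 6 rose and 2 fell at 48 h, and 6 rose and 3 fell at 72 h, where 32.9%, 29.2%, 24.0% and 30.6% of all genes rose. SREBF1, whose product activates fatty acid and triglyceride synthesis genes, GPAM among them, fell from 40.4 ± 11.7 to 13.1 ± 0.589 CPM at 12 h (-1.62, SE 0.167, adjusted p = 1.46e-08), by -1.40 at 24 h and by -1.25 at 72 h, and did not pass at 48 h (-0.37, adjusted p = 0.0588). CEBPA, a factor of fat cell differentiation, fell from 8.51 ± 0.476 to 2.68 ± 0.145 CPM at 12 h (-1.67, SE 0.171, adjusted p = 6.89e-09), and its values at 24, 48 and 72 h were -2.25, -1.53 and -2.30. PPARD, a fatty acid-sensing receptor, rose from 25.3 ± 5.72 to 68.8 ± 3.49 CPM at 12 h (1.44, SE 0.126, adjusted p = 5.44e-10) and was higher by 0.77, 0.35 and 1.04 later. Its call at 48 h (adjusted p = 0.0296) was lost in 7 of 30 alternative fits (0.23 to 0.35). These were factors per gene, no filter, the fit of 2 groups alone, and those without control replicate 1 or 3 or EGF 48 h replicate 1 or 2. TFEB, a factor of lysosome genes, was higher by 1.06, 1.13, 0.82 and 1.22 (adjusted p = 1.79e-09 at 12 h). CEBPA shares 43.4% of its exon bases with genes on the opposite strand.

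Of 7 other target genes of the PPAR receptors, 3 were tested. CPT1A, which commits fatty acids to oxidation in mitochondria, fell at each time point, from a control level of 101 ± 8.02 CPM down to 51.1 ± 2.45 CPM by 72 h (-0.99, SE 0.0711, adjusted p = 2.02e-11), while its value at 12 h, -0.31, was -0.022 with scale factors per gene. PDK4, an inhibitor of pyruvate oxidation with about 1 CPM in the control, was lower at 12 h (-1.14, SE 0.335, adjusted p = 0.00399). At 48 h its value was 0.72 (adjusted p = 0.0401), a call that 10 of 29 alternative fits lost. ACADVL, an enzyme of fatty acid oxidation, was higher at 12 h by 0.38 (adjusted p = 0.0148). That call was lost without control replicate 3 (0.30), with libraries scaled by their totals (0.10) and with upper quartiles (0.22).

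**Figure D4:**
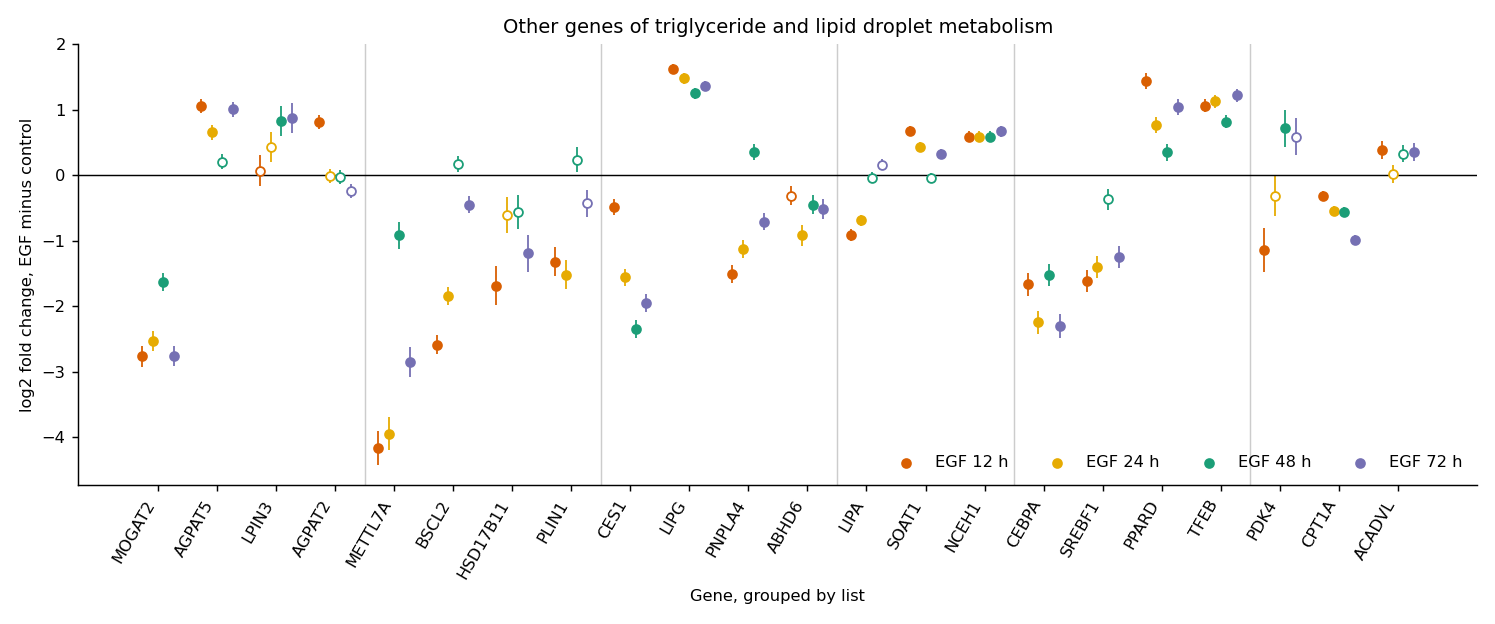
Log2 fold change against the control from edgeR (y axis) of 22 genes of the 6 wider lists (x axis; grey lines part the lists), with 1 point for each EGF time (12, 24, 48 and 72 h) and bars for the standard error. Filled points passed an adjusted p of 0.05 and open points did not; METTL7A at 12 h is lowest, at -4.17, and LIPG at 12 h is highest, at 1.62.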

How the data were processed

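Libraries of 20 MDA-MB-468 samples came from the Corall mRNA protocol (Lexogen), and single-end sequencing was done on the NS500 instrument of Illumina. The authors deposited estimated counts per gene for each library on hg38, and the aligner, annotation and use of strand or molecular identifiers are not given in the sources used here. These counts were used as whole numbers. The deposited tables also hold normalized values, used here as a score from which scale factors per gene were taken for 1 alternative, and columns of the authors' own comparisons by DESeq2 (fold changes, p-values), which were not used. The same counts stand in 10 tables, of which 1 was read.

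Genes were kept by edgeR's filterByExpr, which left 16522 of 60271. Libraries were scaled by TMM, and edgeR 4.0.16 (R 4.3.3) fitted 1 mean per group over all 20 libraries with robust quasi-likelihood dispersions. P-values were corrected by Benjamini-Hochberg across the 16522 genes, and 0.05 was the threshold. Log2 fold changes used a prior count of 0.125 and correlations log2 CPM with a prior count of 2. CPM per kb was CPM divided by the merged exon length of GENCODE 29. Scripts were tested on simulated data. The 10 genes, the lists, the markers and the motifs were chosen with earlier results of these data known. Besides the 10 genes, the text names up to 4 genes per list, those with the largest log2 fold change against the control at any time among genes that passed there, with all 4 libraries on one side of the control and a mean of at least 1 CPM. A gene with few counts, such as GPAT3 in the control, carries more counting error. Precision is limited by 4 libraries per group, and p-values measure the spread between cultures of 1 line. Squared deviations of counts from the expectation shared by 2 replicates, over that expectation, averaged 58.1 per gene for EGF 48 h replicates 2 and 3. For replicates 3 and 4 at 48 h it was 4.52, and control pairs ran from 13.1 to 51.4. The standard errors pool the spread of all groups, and the part of this unevenness was not tested. Alternatives were other scalings, DESeq2 1.42.0 (Wald test), other filters, a fit of 2 groups alone, a replicate block, leaving out 1 library at a time, and another prior count (2).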

Additional observations from a re-analysis of the deposited data

Results flagged for a closer look

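Among 160 sets of 4 libraries (32 named genes in 5 groups), 6 held 1 library that stood apart from the other 3 by Dixon's test, and chance gives about 1 in 20. DGAT2 was at 19.1 CPM in EGF 24 h replicate 1 and at 14 to 14.6 CPM in the other 3 libraries, and without that library its log2 fold change at 24 h was 0.69. METTL7A was at 3.26 CPM in the same library and at 0.833 to 0.976 CPM in the others, and without it the value at 24 h was -4.69 instead of -3.95. MOGAT2 was at 1.81 CPM in EGF 24 h replicate 2 and at 1.27 to 1.35 CPM in the others. CES1 was at 3.61 CPM in EGF 24 h replicate 4 and at 2.67 to 2.76 CPM in the others. LPIN3 was at 3.96 CPM in EGF 48 h replicate 2 and at 2.51 to 2.6 CPM in the others, and without it the value at 48 h was 0.65 instead of 0.83. LIPG was at 59.1 CPM in EGF 72 h replicate 3 and at 57.2 to 57.3 CPM in the others, a set with little spread.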

How the results depend on the processing

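Of 203 counts of the 10 genes under alternative settings, 198 stayed within 1.5 times the value reported, and so did all 116 counts of the wider lists. A count of 8 or 9 of 10 could not pass that limit upward. Many settings left out a library of neither group compared, so these totals say little about stability. From 24 h to 48 h, 4 of 10 genes passed with scale factors per gene, against 7. From 48 h to 72 h, 3 passed with libraries scaled by totals and 2 with factors per gene, against 5, and with 1 library left out the count ran from 3 to 5, the lowest without EGF 72 h replicate 1 or replicate 4. The cause was not tested. Of 1200 log2 fold changes of the 10 genes, 1180 moved by less than 1 SD between replicates. Many of these fits also left out a library of neither group compared, which could hardly move the value. Of 2036 values of the named list genes, 35 lost their call and none of these turned its direction. No clear pairing of libraries by replicate number was seen, though the check cannot exclude one. The deviations of same-numbered libraries correlated with a median r of 0.0092 (-0.239 to 0.348). For different numbers it was -0.00422 (-0.322 to 0.259), and 8 of 20 libraries correlated best with their own number. With the replicate number as a block, 8, 9, 7 and 8 of the 10 genes passed against the control in the order of time, and DGAT2 at 48 h was the gene added. Low counts limit GPAT3 in the control, where its libraries held 20 to 33 counts.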
